A study of Homo sapiens with 9 samples.

Results

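Contacts between different chromosomes were examined in the Hi-C data of growing and senescent IMR90 cells. Hi-C ligates DNA ends that lie close together in the nucleus and counts the ligated pairs. The genome was divided into 1 Mb bins of 25 bins of 40 kb, and all pairs of bins on different autosomes were taken except those among chromosomes 13, 14, 15, 21 and 22, whose short arms share repeats. This gave 3898658 of the 4421765 pairs of 1 Mb bins on different chromosomes (autosomes and X), from 221 of 253 chromosome pairs. Both bins had at least 10 usable bins of 40 kb in 3357603 of them, and these pairs carry all values below. They join 2684 of 2897 autosomal bins. IMR90 cells are human diploid lung fibroblasts, here at passage 20 to 25 and carrying HRAS-G12V fused to an oestrogen receptor domain (ER:HRAS-G12V) in both groups, so that 4-hydroxytamoxifen (4OHT) switches the oncogene on. There were 3 libraries from growing cells, of which growing replicate 3 was also labelled with an MSCV vector, and 2 libraries from cells with RAS-induced senescence (RIS), given 100 nM 4OHT for 6 days. Nothing in the labels separates the added vector from replicate 3, and growing cells differ from RIS cells both in the oncogene and in exposure to 4OHT.

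In the interphase nucleus each chromosome occupies its own territory, and contacts between territories are far rarer than contacts within them. Gene-rich chromosomes tend to lie towards the centre of the nucleus and gene-poor ones towards its edge, and small gene-rich chromosomes are known to touch each other often. Chromatin also separates into an A compartment, open and rich in active genes, and a B compartment, closed and often attached to the nuclear lamina, and segments of a kind prefer each other within and between chromosomes. In RAS-induced senescence of fibroblasts the lamina loses lamin B1, and heterochromatin gathers into senescence-associated heterochromatic foci, away from the edge of the nucleus.

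Each value is an observed/expected ratio, the sum of ICE-balanced contacts over the sum expected if a library's contacts between the chromosomes studied were spread equally over all pairs of usable bins. A value of 1 is therefore the mean contact between chromosomes of that library. A bin belonged to A or B by the sign of the first principal component (PC1) of contacts within its chromosome in the growing mean, with the gene-dense side positive. The split gave 1299 A bins with a median of 7 protein-coding genes and 42.1% GC, and 1385 B bins with a median of 2 genes and 38.5% GC. PC1 was computed chromosome by chromosome, so B on chromosome 19 is relative to chromosome 19, and A bins made up 48.5% of bins on the gene-rich chromosomes 16, 17, 19 and 20 and 48.4% on the other autosomes. The sign was the same in the RIS mean for 94.3% of bins. Recovered contacts between the chromosomes studied ranged from 9968281 to 11645867 in growing libraries and numbered 9527802 and 12710401 in RIS replicates 1 and 2, or 2.84 to 3.79 per pair of 1 Mb bins. The shares of dangling ends and of duplicates also differed among libraries in the study's alignment summary, with many duplicates in growing replicate 3 and RIS replicate 2. Their part in the results was not tested beyond values within each duplicate class and fits with duplicate class as a block. With 3 libraries against 2, there are 10 ways to assign the labels, so a two-sided exact permutation test cannot give a p under 0.1. Most groups whose libraries do not overlap reach it, and nothing in the labels says whether replicates came from separate cultures.

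A larger part of all contacts joined different chromosomes in the RIS libraries. The share of the ICE signal in the pairs studied was 6.90%, 7.10% and 6.59% in the 3 growing libraries, against 8.89% and 8.57% in the 2 RIS libraries. Both RIS libraries lay above all growing libraries. The means were 6.865% ± 0.255 (SD, n = 3) and 8.728% ± 0.224 (SD, n = 2), a ratio of 1.272 (two-sided exact permutation p = 0.1). The paper left out another RIS Hi-C sample for its few valid reads and low complexity. Whether library preparation contributes to the difference in this share was not tested. Because observed/expected divides out this share, a group of pairs can be lower relative to other contacts between chromosomes and still take a larger part of the library, so both quantities are given.

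Within the contacts between chromosomes, those joining B to B were higher in RIS and those joining A to A were lower. A–A observed/expected was 1.439, 1.380 and 1.393 in growing libraries, against 1.302 and 1.188 in RIS libraries, a difference of −0.18 on the log2 scale. B–B observed/expected was 1.202, 1.251 and 1.208 in growing libraries, against 1.397 and 1.432 in RIS libraries, a difference of 0.21. A–B contacts lay at 0.687, 0.688 and 0.705 against 0.647 and 0.682, a difference of −0.06. The groups did not overlap in any of the 3 classes (exact permutation p = 0.1 each). Without RIS replicate 2 the A–A difference was −0.11, and without RIS replicate 1 the A–B difference was −0.02. As parts of the whole library, all 3 classes were higher in RIS, A–A contacts 1.13 times, A–B contacts 1.22 times and B–B contacts 1.47 times. Each 1 Mb bin was also scaled to its own total of contacts with other chromosomes, which removes differences between bins in that total. On that scale the A–A difference was 0.09, the A–B difference −0.05 (exact permutation p = 0.3) and the B–B difference −0.03 (exact permutation p = 0.3).

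The separation of the compartments between chromosomes, taken as log2 of A–A times B–B over the square of A–B, did not differ beyond the spread between libraries. It was 1.87, 1.87 and 1.76 in growing libraries, against 2.12 and 1.87 in RIS libraries, a difference of 0.16 (exact permutation p = 0.2). The groups overlapped, and the difference was 0.04 without RIS replicate 1 and 0.29 without RIS replicate 2.

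**Figure D1:**
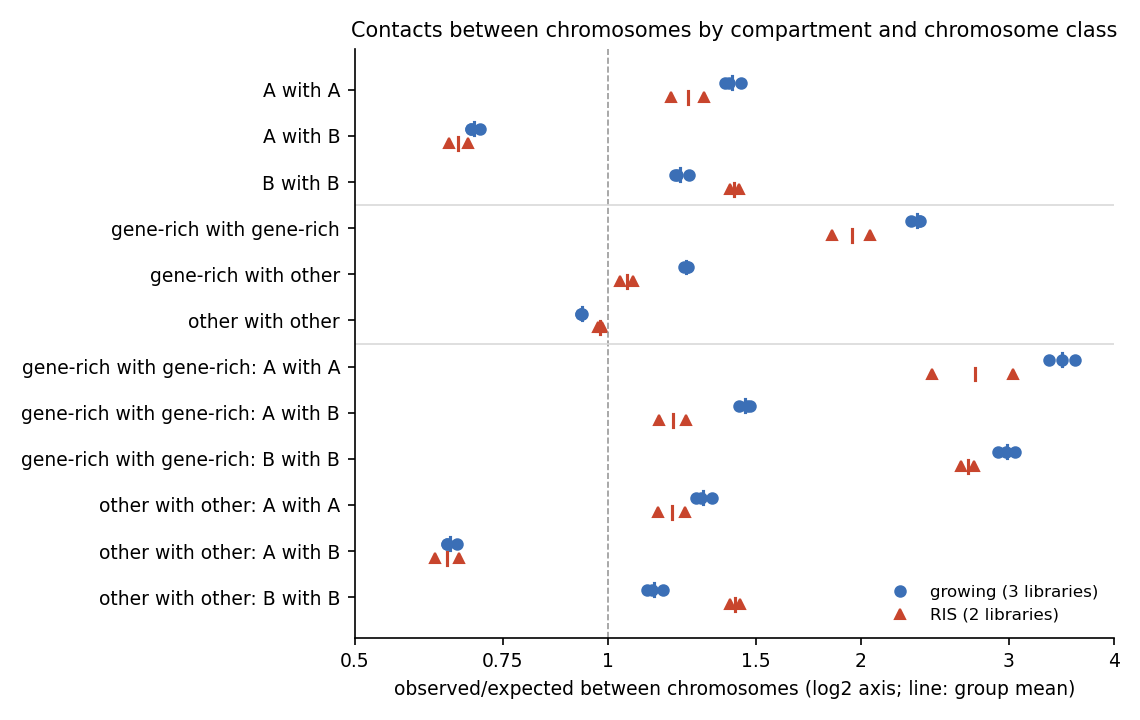
Observed/expected between chromosomes (log2 axis, 1 is the mean contact between chromosomes of a library) by compartment, by chromosome class (gene-rich: chromosomes 16, 17, 19 and 20) and by both, with a point for each of the 3 growing and 2 RIS libraries and a line at each group mean. B–B contacts of the other autosomes lay at 1.113 to 1.165 in growing, against 1.397 and 1.437 in RIS libraries. Gene-rich classes were lower in RIS on this scale. As parts of the library, the A–A, A–B and gene-rich classes drawn lay at ratios of RIS over growing of 1.0 to 1.26.

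Gene-rich chromosomes had a smaller excess of contacts with each other and with the rest in RIS cells. Among chromosomes 16, 17, 19 and 20 observed/expected was 2.345, 2.353 and 2.294 in growing libraries, against 2.052 and 1.849 in RIS libraries. Between these and the other autosomes it was 1.245, 1.242 and 1.231 against 1.073 and 1.035, and among the other autosomes 0.929, 0.930 and 0.933 against 0.973 and 0.984. The log2 differences were −0.26, −0.23 and 0.07, with no overlap of the groups in any class (exact permutation p = 0.1 each). As part of the library the first 2 classes were 1.06 times (exact p = 0.5) and 1.08 times (exact p = 0.2) as high in RIS, with overlapping libraries in the first of them, and the last 1.34 times (exact p = 0.1). Scaled to each bin's total, the difference was 0.24 among gene-rich chromosomes, −0.02 between these and the others and 0.00154 among the others.

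Splitting these classes by compartment separated 2 patterns. On the gene-rich chromosomes both compartments were lower in RIS relative to other contacts between chromosomes. A–A contacts among them were 3.599, 3.470 and 3.349 in growing, against 3.035 and 2.429 in RIS libraries, and their B–B contacts lay at 2.976, 3.056 and 2.915 in growing, against 2.725 and 2.635 in RIS libraries (log2 differences −0.35 and −0.15). The A–A difference was −0.19 without RIS replicate 2. The A–A and B–B differences were 0.34 and 0.19 with each bin scaled to its total, and as parts of the library the ratios were 1.00 (exact p = 1) and 1.14 (exact p = 0.2). Contacts of gene-rich A bins with B bins of other autosomes were the sparsest of the gene-rich classes, at 0.613, 0.633 and 0.656 in growing, against 0.477 and 0.515 in RIS libraries, a difference of −0.35, which was −0.18 with each bin scaled to its total and a ratio of 0.995 as part of the library (exact p = 1). Among the other autosomes the compartments parted. B–B contacts were 1.113, 1.165 and 1.128 in growing, against 1.397 and 1.437 in RIS libraries, a difference of 0.32, or 1.59 times as part of the library. A–A contacts were 1.329, 1.274 and 1.290 against 1.237 and 1.147, a difference of −0.12 that was −0.07 without RIS replicate 2, and A–B contacts did not separate the groups (difference −0.01, exact permutation p = 1). With each bin scaled to its total, the B–B difference among the other autosomes was −0.01 (exact p = 0.8) and the A–A difference 0.09.

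Shorter chromosomes had more contacts per pair of bins than longer ones, and this relation was flatter in RIS. Between the short chromosomes 16 to 22 observed/expected was 2.418, 2.425 and 2.379 in growing libraries, against 2.084 and 1.922 in RIS libraries. Between the long chromosomes 1 to 7 it was 0.791, 0.788 and 0.801 against 0.847 and 0.876. The slope of log2 observed/expected on log2 of the product of both lengths over the 221 chromosome pairs was −0.47, −0.48 and −0.46 in growing libraries, against −0.35 and −0.30 in RIS libraries, a difference of 0.14 with no overlap (exact permutation p = 0.1). Scaled to each bin's total the difference was −0.02. As part of the library, contacts among short chromosomes were 1.06 times (exact p = 0.5) and among long ones 1.38 times as high in RIS. Length alone did not order the short chromosomes. In contacts with chromosomes 1 to 7, chromosomes 18 and 21 were higher in RIS by 0.13 and 0.17, whereas chromosomes 22, 19, 17, 20 and 16 were lower, with differences of −0.38, −0.44, −0.23, −0.18 and −0.09. For chromosome 19 these contacts were 1.004, 1.002 and 0.995 in growing, against 0.744 and 0.730 in RIS libraries. The groups did not overlap for any of these 7 chromosomes, whereas as part of the library the contacts of chromosomes 19 and 22 with the long ones overlapped, at ratios of 0.936 (exact p = 0.3) and 0.979 (exact p = 0.5), and those of chromosomes 16, 17 and 20 were higher in RIS, at ratios of 1.19, 1.09 and 1.12 (exact p = 0.1 each). With each bin scaled to its total the 7 differences kept their signs but were smaller, 0.04 each for chromosomes 18 and 21 and −0.08, −0.09, −0.05, −0.00756 (exact p = 0.7) and −0.02 for chromosomes 22, 19, 17, 20 and 16.

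Most chromosome pairs changed, in both directions. Fitting log2 observed/expected over all 253 chromosome pairs with limma, 213 pairs (84.2%) passed an adjusted p of 0.05, 39.5% higher and 44.7% lower. Of the 221 pairs studied, 185 passed, 85 higher and 100 lower. All 6 pairs among the gene-rich chromosomes fell, as did 70 of 72 pairs of a gene-rich with another autosome, and none of either kind rose. Of the 143 pairs among the other autosomes, 85 rose and 24 fell. Libraries of a group correlated at 0.9943 to 0.9988 over the 221 pairs and libraries of different groups at 0.881 to 0.918, given as a description since pairs share chromosomes. The growing and RIS libraries did not overlap in 205 of the 221 pairs, against 92.9% of all 253 pairs. With each bin scaled to its own total, 132 of the 221 pairs passed in limma, 64 higher and 68 lower, and with library totals 206 of all 253 did, 192 higher and 14 lower.

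**Figure D2:**
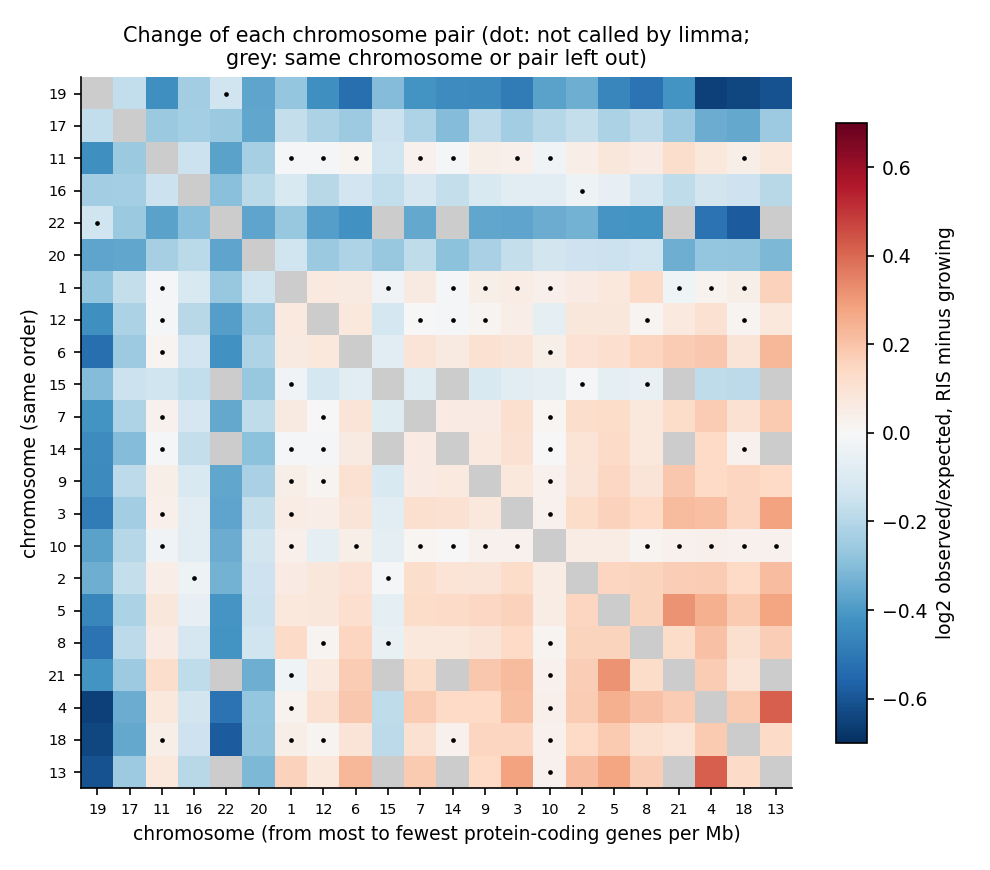
Change of each of the 221 chromosome pairs studied, as log2 observed/expected of RIS minus growing, with chromosomes ordered from most to fewest protein-coding genes per Mb on both axes; dots mark pairs not called by limma and grey marks pairs of a chromosome with itself or left out. Pairs with chromosomes 19, 17, 16, 22 and 20 were lower relative to other contacts between chromosomes and pairs among gene-poor chromosomes such as 4, 13, 18 and 21 mostly higher; with library totals 192 of the 206 pairs called among all 253 were higher in RIS.

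Chromosome 19, the most gene-dense chromosome, fell in 20 of its 21 pairs, with a median of −0.43. The pair of chromosomes 4 and 19 was at 1.043, 1.041 and 1.034 in growing libraries, against 0.658 and 0.665 in RIS libraries, and changed by −0.65 ± 0.02 (SE, limma adjusted p = 8.07e-07). The pair of chromosomes 18 and 19, which have 3.41 and 25.0 protein-coding genes per Mb, was at 1.908, 1.959 and 1.984 in growing libraries, against 1.254 and 1.258 in RIS libraries (−0.64, limma adjusted p = 1.05e-06). Each RIS library lay below every growing library in both pairs, a condition of the rule that named them. Chromosomes 13, 6, 8, 3, 5 and 9 were also among the 10 largest changes through their pair with chromosome 19, by −0.61, −0.53, −0.52, −0.49, −0.46 and −0.45. The other members of these 10 joined chromosome 22 to chromosomes 18 and 4, by −0.58 and −0.52. Chromosome 18 with 22 was at 2.344, 2.390 and 2.403 in growing, against 1.599 and 1.584 in RIS libraries. All 10 thus joined chromosome 19 or 22 to a less gene-dense chromosome, and all 10 were lower.

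The largest rises, named after their values were seen, joined gene-poor chromosomes. Chromosomes 4 and 13, which have 3.98 and 2.80 protein-coding genes per Mb, were at 0.932, 0.942 and 0.942 in growing libraries, against 1.257 and 1.252 in RIS libraries, and changed by 0.42 ± 0.02 (SE, limma adjusted p = 1.63e-06). The 2 groups were far apart relative to the spread within each. Within this pair B–B contacts were higher by 0.91 and A–A contacts by 0.09. Chromosomes 5 and 21 rose by 0.31, 3 and 13 by 0.28, 5 and 13 by 0.28, and 4 and 5 by 0.25.

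The pairs with most contacts in growing cells all joined short chromosomes. Chromosomes 18 and 21, both gene-poor, had the highest growing mean, 3.639 ± 0.047 (SD, n = 3), and rose to 3.884 ± 0.054 (SD, n = 2; limma adjusted p = 0.00296), which did not pass with each bin scaled to its total (adjusted p = 0.513). The pair of chromosomes 19 and 22 followed at 3.537 and was at 3.219 in RIS, a difference that did not pass (limma adjusted p = 0.0609), that passed as a decrease in limma without RIS replicate 1 (−0.25) but was −0.03 without RIS replicate 2, and that was an increase of 0.21 with library totals and of 0.64 with each bin scaled to its total. Chromosomes 20 and 22, 20 and 21, and 19 and 21 fell by 0.37, 0.34 and 0.42, but none passed in limma with library totals (−0.02, 0.00255 and −0.07), and chromosomes 20 and 22 were higher by 0.23 with each bin scaled to its total. The lowest pairs joined long chromosomes. The pair of chromosomes 1 and 2 was lowest, at 0.728 in growing and 0.756 in RIS cells, and its rise of 0.06 (limma adjusted p = 0.0321) no longer passed without RIS replicate 2 (adjusted p = 0.109). Chromosomes 2 and 5, 2 and 3, 2 and 4, and 1 and 5 rose by 0.15, 0.13, 0.18 and 0.07, the last by 0.05 without RIS replicate 2, and all 5 were lower, by at most 0.05, with each bin scaled to its total.

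Relative to other contacts between chromosomes, A–A contacts within chromosome pairs were lower nearly everywhere, and B–B contacts were divided. A–A contacts were lower in RIS without overlap of the libraries in 184 of the 221 pairs (83.3%) and higher in 2 (0.905%). B–B contacts were higher without overlap in 127 pairs (57.5%) and lower in 72 (32.6%). The split followed the chromosomes. Among the other autosomes B–B contacts were higher in 119 and lower in 14 of 143 pairs, whereas between gene-rich and other chromosomes they were higher in 8 and lower in 53 of 72 pairs. A–B contacts were lower in 133 pairs (60.2%) and higher in 10 (4.52%). These counts were made on this scale only. Over all pairs studied, A–A, A–B and B–B contacts were 1.13, 1.22 and 1.47 times as high in RIS as parts of the library. With each bin scaled to its total the A–A difference over all pairs was 0.09.

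Summed over all its partners, each chromosome was ordered roughly by its gene density. Chromosome 19, with 25.0 protein-coding genes per Mb, went from a growing mean of 1.358 to a RIS mean of 1.025, a log2 difference of −0.41. Chromosome 22 followed at −0.36, chromosomes 17 and 20 at −0.23 each and chromosome 16 at −0.14. Chromosome 13, with the fewest genes per Mb, had the largest difference upwards, 0.13, ahead of chromosomes 4 (0.09) and 5 (0.09). The order was not strict. Chromosome 11 has 9.76 genes per Mb, more than chromosomes 16, 20 and 22, and differed by −0.02, and chromosome 15 has 5.92 and differed by −0.11. Over the 22 chromosomes the difference correlated with genes per Mb at r = −0.80 (Spearman's rho −0.83) and with length at r = 0.63, a description over chromosomes that share their contacts. As a share of all contacts of its own bins, contacts with the partners studied had a ratio of RIS over growing of 0.962 on chromosome 19 (exact permutation p = 0.4) and of 0.993 on chromosome 22 (exact p = 0.8). The other 20 chromosomes had ratios of 1.08 to 1.39, the highest on chromosome 13, with no overlap of the groups on any of them.

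The change was graded along PC1. The bins were divided into quintiles of 537 or 536 bins, from the strongest B (quintile 1) to the strongest A (quintile 5). Contacts within quintile 1 were 1.593, 1.778 and 1.641 in growing libraries, against 2.509 and 2.538 in RIS libraries, a difference of 0.60. Contacts within quintile 5 were 2.211, 2.090 and 2.115 in growing libraries, against 1.870 and 1.608 in RIS libraries, a difference of −0.30. Without RIS replicate 2 the latter difference was −0.19, and that within quintile 4, given next, was −0.07. Contacts of quintile 1 with quintile 2 were higher by 0.24, and those within quintiles 3 and 4 differed by −0.09 and −0.11, all without overlap (exact permutation p = 0.1). These 3 turned direction with each bin scaled to its total, to −0.11, 0.04 and 0.13. Contacts of quintile 1 with quintile 5, the rarest in both groups, were 0.286, 0.292 and 0.320 in growing, against 0.280 and 0.349 in RIS libraries, which overlap (exact permutation p = 0.7). As parts of the library, contacts within quintile 1 were 1.92 times as high in RIS and those within quintile 5 were 1.04 times as high (exact p = 0.8). On the scale of each bin's total the differences within quintiles 1 and 5 were 0.01 and 0.03.

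**Figure D3:**
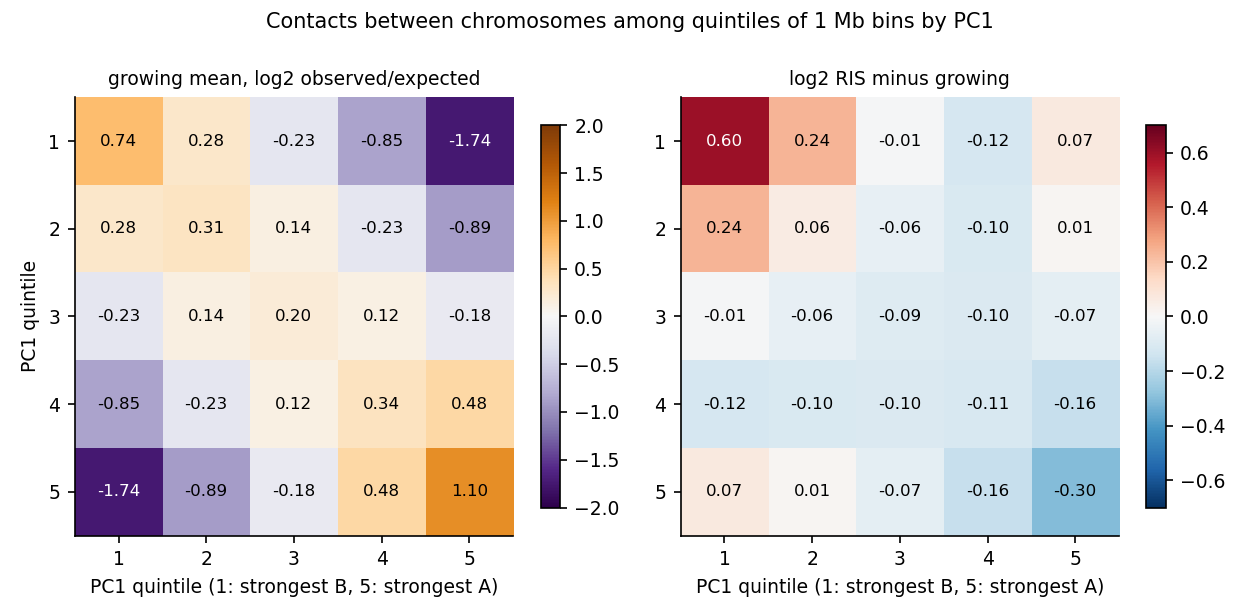
Contacts between chromosomes among quintiles of 1 Mb bins by PC1 of the growing mean, from 1 (strongest B) to 5 (strongest A), with the log2 observed/expected of the growing mean on the left and the log2 difference of RIS minus growing on the right. The strongest B bins were higher with each other by 0.60 and the strongest A bins lower by 0.30 relative to other contacts between chromosomes; as parts of the library the latter were 1.04 times as high in RIS.

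Chromosome ends and centromeres, which cluster in interphase nuclei, had high contacts with their own kind and were lower in RIS. Bins within 5 Mb of a chromosome end (197 bins) met each other at 2.542, 2.561 and 2.353 in growing, against 2.276 and 2.011 in RIS libraries, a log2 difference of −0.22 that was −0.13 without RIS replicate 2. Bins within 5 Mb of the longest assembly gap, which marks the centromere region (205 bins), met each other at 3.306, 3.519 and 3.308 against 2.784 and 2.655, a difference of −0.31. The highest level of all groups compared belonged to B bins next to these gaps, at 6.221, 6.564 and 6.100 in growing, against 5.353 and 5.107 in RIS libraries, a difference of −0.27. Near-identical repeats at gaps can place reads of one chromosome on another, so the levels at gaps are uncertain. B bins away from ends and gaps went the other way, from 1.054, 1.099 and 1.075 to 1.316 and 1.360, a difference of 0.31. The groups did not overlap in any of these 4 classes (exact permutation p = 0.1 each). As parts of the library, end with end contacts were 1.10 times (exact p = 0.5) and gap with gap contacts 1.02 times (exact p = 0.8) as high in RIS. Scaled to each bin's total the differences were 0.20 for ends, −0.12 for gaps, −0.20 for B bins next to gaps and −0.01 for B bins away from both.

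Bins were also grouped by base composition, which the rule for A and B did not use, and by gene content, which it used only to orient PC1. AT-rich and gene-free bins met each other more in RIS. Bins in the lowest quartile of GC content (up to 37.5%) met each other at 1.050, 1.151 and 1.114 in growing, against 1.993 and 2.000 in RIS libraries, a difference of 0.85, or 2.30 times as part of the library. Bins in the highest quartile (from 43.6%) met each other at 1.928, 1.874 and 1.825 against 1.714 and 1.506, a difference of −0.22 that was −0.13 without RIS replicate 2. Contacts between the lowest and the highest quartile were 0.576, 0.578 and 0.595 in growing, against 0.387 and 0.439 in RIS libraries, a difference of −0.50, and were lower also as part of the library (ratio 0.899, exact permutation p = 0.1). The 332 bins without a protein-coding gene met each other at 1.314, 1.456 and 1.383 against 2.316 and 2.329, a difference of 0.75, and the 343 bins with 15 or more genes met each other at 2.375, 2.305 and 2.234 against 2.014 and 1.698, a difference of −0.32 that was −0.20 without RIS replicate 2. The groups did not overlap in any of these 5 classes. Scaled to each bin's total, the differences were 0.20 for the lowest and 0.30 for the highest quartile of GC, −0.56 between them, 0.09 for bins without a gene and 0.26 for bins with 15 or more. GC content is also a known source of unequal recovery in sequencing, and its part in these differences was not tested. With the unbalanced contacts recovered from the ICE values, the A–A difference was −0.15 and the B–B difference 0.19.

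Among the 2684 single bins, 1909 (71.1%) changed in their contacts with all other chromosomes by limma, 875 (32.6%) higher and 1034 (38.5%) lower. Of A bins 140 rose and 751 fell of 1299, with a median of −0.13, and of B bins 735 rose and 283 fell of 1385, with a median of 0.12. Of the bins without a protein-coding gene 271 rose and 11 fell, and of those with 15 or more genes 8 rose and 303 fell. All 126 changed A bins on the gene-rich chromosomes fell, of 132. On chromosome 22, 34 of 35 bins fell, and on chromosome 19, 50 of 55. Over all bins the change correlated with GC content at r = −0.78 (rho −0.83), with genes per bin at r = −0.67 and with PC1 at r = −0.57, a description over bins that share libraries and partners. With library totals 2216 bins (82.6%) changed, 2171 higher (80.9%) and 45 lower (1.68%), and 25 of these 45 lay on chromosome 19.

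**Figure D4:**
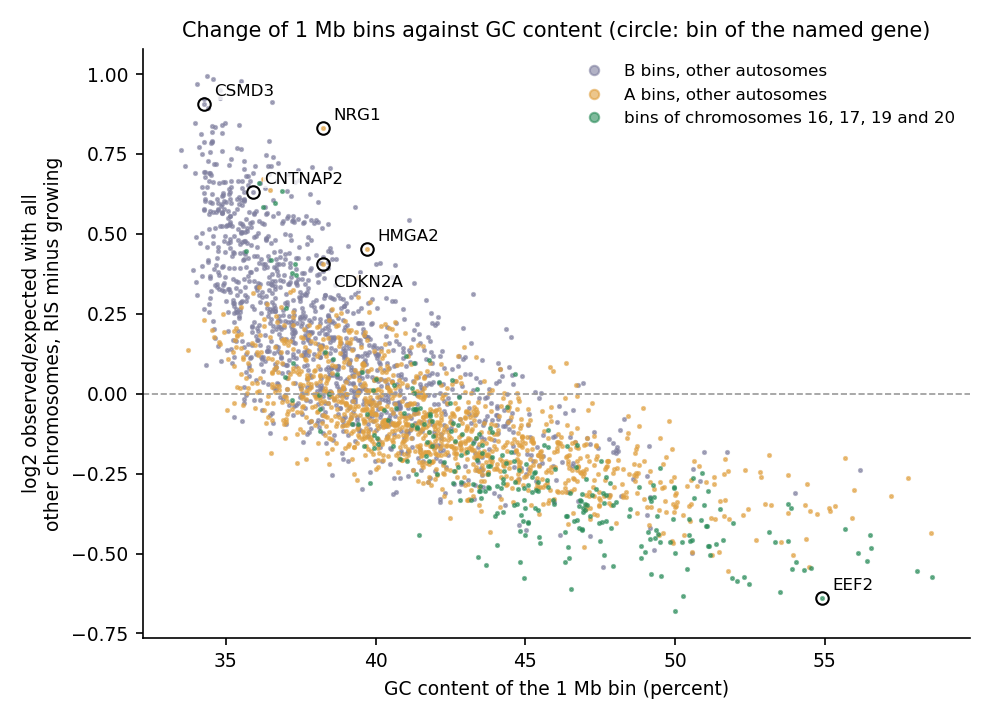
Change of each of the 2684 bins in contacts with all other chromosomes, as log2 observed/expected of RIS minus growing, against its GC content in percent, with bins coloured by compartment and by the gene-rich chromosomes and bins of 6 named genes circled. The change ran from above 0.9 in the AT-rich B bins to below −0.6 in GC-rich bins of chromosome 19 (r = −0.78 over bins), and the bin of NRG1 lay at 0.83; with library totals 2171 of 2216 changed bins were higher.

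The 5 bins with the largest decrease all lay on chromosome 19 (hg19). The bin chr19:55000001-56000000, which holds the innate immune receptors NLRP2 and NLRP7 and the retinol dehydrogenase gene RDH13 among 47 genes, was at 1.13, 1.18 and 1.19 in growing, against 0.714 and 0.745 in RIS libraries, a change of −0.68 ± 0.04 (SE, limma adjusted p = 3.34e-07). The bin of EEF2, the elongation factor that moves the ribosome along the messenger RNA (chr19:3000001-4000000), was at 1.25, 1.24 and 1.24 against 0.875 and 0.730, a change of −0.64. All RIS values lay below all growing values in both, a condition of the rule that named them. The others held SHANK1, a scaffold of synapses (chr19:51000001-52000000, −0.63), UHRF1 and CHAF1A, which maintain DNA methylation and assemble chromatin behind the replication fork (chr19:4000001-5000000, −0.62), and HOOK2, an adaptor to microtubules (chr19:12000001-13000000, −0.61). These 5 bins were lower also with library totals, by 0.26 to 0.33.

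The 5 bins with the largest increase lay in gene deserts of chromosomes 2 and 3. The bin chr3:164000001-165000000 holds only SI, the sucrase-isomaltase of the intestine, and SLITRK3, a synaptic adhesion gene, with 34.4% GC. It was at 0.399, 0.453 and 0.467 in growing, against 0.839 and 0.908 in RIS libraries, a change of 0.99 ± 0.06 (SE, limma adjusted p = 3.77e-07). In growing cells it had far fewer contacts with other chromosomes than the mean bin, and in RIS cells it came close to the mean. The bin of FSIP2, a gene of the sperm tail (chr2:186000001-187000000), changed by 0.98, and chr3:166000001-167000000, chr2:194000001-195000000 and chr3:163000001-164000000, which hold no protein-coding gene, changed by 0.98, 0.97 and 0.95.

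A second measure asked which compartment a bin met, as log2 of observed/expected with A partners over that with B partners on other chromosomes. This preference changed in 1179 of 2684 bins (43.9%) by limma, with 1000 lower (37.3%), that is towards B, and 179 higher (6.67%), towards A. Of B bins 704 moved towards B and 98 towards A, and in quintile 1 of PC1 394 of 537 moved towards B. Over B bins the median preference was −0.80, −0.83 and −0.76 in growing, against −1.06 and −1.01 in RIS libraries, without overlap. A bins had a median of 1.00, 0.96 and 0.92 against 1.01 and 0.82, which overlap (exact permutation p = 0.7), and 296 of 1299 moved towards B and 81 towards A. On chromosome 19, 26 of 55 bins moved towards A and 1 towards B, on chromosome 17, 19 and 5 of 78, on chromosome 22, 8 and 2 of 35, and on the gene-rich chromosomes together 53 and 26 of 272. The gene-rich chromosomes 16 and 20 went the other way. On chromosome 16, 5 of 79 bins moved towards A and 10 towards B, and on chromosome 20, 3 and 10 of 60. With each bin scaled to its total, 1095 bins changed and the directions were turned over in number, 757 towards A and 338 towards B.

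In bins that changed the sign of PC1, which rests on contacts within a chromosome, most calls of preference between chromosomes ran the same way. Of the 124 bins in A only in RIS, the preference moved towards A in 36 and towards B in 5, and of the 29 bins in A only in growing cells it moved towards B in 20 and towards A in 0. Over all bins these directions made up 6.67% and 37.3%. In these 29 bins the median change was −0.35 and in the 124 bins 0.15.

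The largest moves towards B were found in gene deserts and the largest towards A on chromosome 19. The bin chr8:83000001-84000000, without a protein-coding gene, had preferences of −1.27, −1.06 and −0.43 in growing, against −2.30 and −1.97 in RIS libraries, a change of −1.22 ± 0.22 (SE, limma adjusted p = 0.00319), with growing replicate 3 apart from the other 2 growing libraries. It was followed by chr9:11000001-12000000 (−1.08), chr3:164000001-165000000 (−1.01), chr7:10000001-11000000 with NDUFA4 of the respiratory chain (−0.98) and chr13:89000001-90000000 (−0.98). Towards A the bin of HOOK2 on chr19:12000001-13000000 came first, from 0.88, 0.56 and 0.50 to 1.85 and 1.29 (0.92, limma adjusted p = 0.00342). The bins of ZNF83 and ZNF28 (chr19:53000001-54000000, 0.70), ZNF420 (chr19:37000001-38000000, 0.69), ZNF235 (chr19:44000001-45000000, 0.66) and SHANK1 (chr19:51000001-52000000, 0.66) followed, of which the first 3 hold clusters of zinc finger genes, a family that mostly represses transposable elements. Bins were named only among those called without overlap of the groups, so the lack of overlap in these 10 bins was set by that choice.

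Bins that hold genes of senescence, proliferation and fibroblast identity were read through 6 gene lists, each gene assigned to the bin of its middle, and the counts are set against 32.6% higher and 38.5% lower over all bins. Since 17 of 19 secretory, 12 of 15 proliferation, 11 of 14 fibroblast and 8 of 9 housekeeping bins were A bins, the nearer shares are those of A bins, 10.8% higher and 57.8% lower, and of bins with 15 or more genes, 88.3% lower. Genes of the secretory phenotype, the cytokines and proteases that senescent cells release, lay in 19 bins, of which 12 fell, 1 rose and 6 did not pass, with a median of −0.17. The bin of IL1A and IL1B, which encode interleukin 1, fell by 0.37 from 1.14, 1.12 and 1.09 to 0.879 and 0.851. The bin of VEGFA fell by 0.41, and the bin of the chemokine CCL20 alone rose, by 0.30. In preference 3 bins moved towards B, those of PLAT (−0.53), IGFBP5 (−0.39) and IL6 (−0.37), and 1 towards A, that of IGFBP3 (0.31). Of all A bins 22.8% moved towards B.

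Genes of proliferation lay in 15 bins, of which 8 fell and 1 rose, with a median of −0.14. PLK1 and E2F1, a mitotic kinase and a driver of S phase, lay in bins that fell by 0.40 and 0.38, and the bin of cyclin A2 (CCNA2) rose by 0.12. The bin of PCNA, the sliding clamp of DNA replication, moved towards A by 0.51 in preference. There its contacts with A partners were 1.705, 1.670 and 1.665 in growing, against 1.678 and 1.524 in RIS libraries, which overlap, while those with B partners were 1.317, 1.331 and 1.416 against 0.882 and 0.936. The bin of HMGB2, a chromatin protein lost early in senescence, moved towards B by 0.58, with A partners at 0.825, 0.812 and 0.840 against 0.616 and 0.685 and B partners at 0.898, 0.889 and 0.920 against 1.05 and 1.07. The bins of AURKA and E2F1 also moved towards B, by 0.31 and 0.27, as did that of CCNE2. The bin of LMNB1, the lamin B1 gene, was at 0.790, 0.726 and 0.754 in growing, against 0.790 and 0.794 in RIS libraries and did not pass (limma adjusted p = 0.184).

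The 14 bins of fibroblast genes included 9 that fell and 4 that rose, and the 9 bins of housekeeping genes on autosomes all fell, with a median of −0.30. The bin of COL3A1, a fibrillar collagen, rose by 0.20 and moved towards B by 0.67, through B partners at 0.305, 0.305 and 0.336 in growing, against 0.476 and 0.514 in RIS libraries. TWIST1, ACTA2 and COL1A2 also lay in bins that moved towards B, by 0.50, 0.44 and 0.34. Of the housekeeping bins those of MALAT1 with NEAT1, nuclear RNAs of speckles and paraspeckles, and of GAPDH moved towards B by 0.48 and 0.31. Very long genes, most of them neuronal adhesion or receptor genes that fibroblasts hardly use, lay in B bins alone. All 11 of their bins were B, 10 rose and 0 fell, with a median of 0.48, and 10 moved towards B and 0 towards A, with a median of −0.67, beside medians of −0.03 and −0.17 over all bins. Bins of a like kind showed the same, with medians of 0.35 and −0.50 in quintile 1 of PC1 and of 0.35 and −0.52 in bins without a protein-coding gene, of which 81.6% rose and 76.5% moved towards B.

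The bin of CSMD3, a giant gene of the brain (chr8:113000001-114000000), was at 0.559, 0.624 and 0.634 in growing, against 1.12 and 1.15 in RIS libraries, a change of 0.91 (limma adjusted p = 2.81e-07). The gain lay with B partners, at 0.845, 0.972 and 0.948 in growing and 1.921 in both RIS libraries, whereas A partners were at 0.257, 0.256 and 0.302 against 0.269 and 0.328, which overlap. The bin of CNTNAP2, a neurexin-like adhesion gene (chr7:146000001-147000000), had B partners at 0.928, 0.968 and 0.981 against 1.654 and 1.711, and A partners that overlapped. Its preference and that of CSMD3 moved towards B by 0.90 and 0.93, followed by CDH18 (−0.78). With library totals the direction of the contacts with all partners was turned over in 41 of the 77 bins of the 6 lists, and without RIS replicate 2 the calls of 12 of these bins were lost. In preference, scaling each bin to its total ended 13 calls of these bins, added 13 and turned 1 direction.

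Among the 9 bins of senescence regulators 4 rose and 4 fell. Among those that fell were the bins of CDKN1A, HMGA1 and RB1, by 0.31, 0.23 and 0.13. Those that rose held NRG1, a growth factor of the EGF family, HMGA2, a DNA-bending protein of heterochromatic foci, and the adjacent cyclin-dependent kinase inhibitor genes CDKN2A and CDKN2B. The paper ranked the domains of NRG1 and HMGA2 highest by number of changed interactions, from these same Hi-C data. Their place in the list is therefore not independent of the data. ICE balancing gives each bin of 40 kb the same total, so a larger share between chromosomes leaves a smaller share within its own. The bin of NRG1 (chr8:32000001-33000000, an A bin) was at 0.935, 0.953 and 0.917 in growing, against 1.73 and 1.60 in RIS libraries, a change of 0.83 ± 0.04 (SE, limma adjusted p = 2.72e-07), more than that of any other bin of the lists but CSMD3. Contacts with A partners were 1.102, 1.149 and 1.098 in growing, against 2.368 and 2.119 in RIS libraries, a difference of 1.00, and those with B partners 0.776, 0.769 and 0.745 against 1.123 and 1.111, a difference of 0.55. The RIS libraries lay above the growing ones with both compartments, and more so with A. The bin of HMGA2 (chr12:66000001-67000000) went from 1.424, 1.356 and 1.303 to 2.209 and 1.929 with A partners and changed by 0.45 over all partners (limma adjusted p = 9.81e-06). Its preference and that of NRG1 moved towards A by 0.41 and 0.46. The bin of CDKN2A (chr9:21000001-22000000) went from 1.11, 1.06 and 1.08 to 1.47 and 1.40, a change of 0.41, with little difference between A and B partners (preference 0.04, limma adjusted p = 0.683), and the next bin, with CDKN2B, changed by 0.39 and moved towards B by 0.36.

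**Figure D5:**
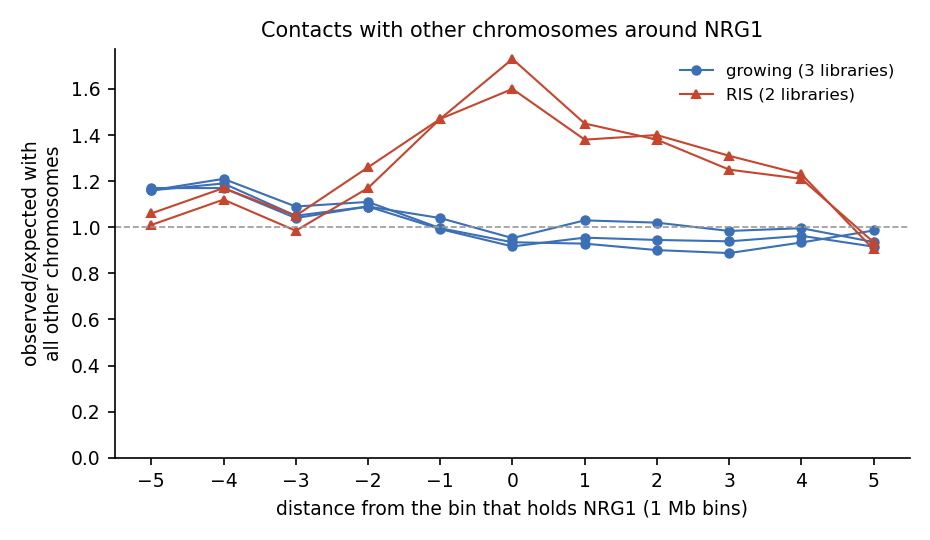
Observed/expected with all other chromosomes for the 1 Mb bin that holds NRG1 (position 0) and 5 bins to either side, with a line for each of the 3 growing and 2 RIS libraries. The RIS libraries reached 1.73 and 1.60 at the bin of NRG1 and lay above all growing libraries from 2 bins before to 4 bins after it, and in the bins 5 away on either side they lay below or within the growing range.

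Neighbours of the NRG1 bin also rose, on both sides. The bins just before it (chr8:31000001-32000000) and just after it (chr8:33000001-34000000) changed by 0.54 each, both passing limma at adjusted p = 6.35e-07 and 2.32e-06. The first of these holds part of NRG1 itself, and its preference also moved towards A, by 0.42 (limma adjusted p = 0.00338). The bin 2 before it (chr8:30000001-31000000, with WRN and RBPMS) changed by 0.15 and the bin 3 before it did not pass (−0.06, limma adjusted p = 0.202). The bins 2, 3 and 4 after it, all B bins, rose by 0.54, 0.46 and 0.34, but their preference moved towards B, by 0.48, 0.40 and 0.34 (limma adjusted p = 0.0147, 0.0261 and 0.0164), whereas that of NRG1 moved towards A.

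Single pairs of 1 Mb bins passed a test only with recovered contacts. By limma on balanced values 0 of 643750 pairs passed (0.0%), and 83772 were at an unadjusted p under 0.05, with 74292 of the 583796 pairs studied among them. The pairs with the largest limma change in each direction, neither of them called, were chr2:242000001-243000000 with chr19:51000001-52000000 at 0, 0 and 0 contacts in growing, against 6 and 4 in RIS libraries, and chr12:57000001-58000000 with chr17:79000001-80000000 at 4, 4 and 7 against 0 and 0 contacts. With limma voom on recovered contacts 13583 of 706878 pairs passed (1.92%), of which 12161 belonged to the 644304 pairs studied (1.89%), 10313 higher and 1848 lower. Of 274173 tested B–B pairs 9492 passed (3.46%), 8569 higher. Of 224905 A–A pairs 1235 passed (0.549%), 699 higher, and of 145226 A–B pairs 1434 (0.987%), 1045 higher. The minimum mean of 5 was taken over all libraries, so a pair scarce in one group was tested only where it was high in the other, and these counts are a description. Among the gene-rich chromosomes 58 of 8975 tested pairs passed (0.646%), and 46 of these fell.

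Bins differed in how many of their pairs were called, and those with the most are named after their values were seen. A median bin had 0 pairs called higher, 1172 bins had at least 1, and 28 bins had at least 100, of which 27 were B bins. The exception was the bin of NRG1, chr8:32000001-33000000, which had the largest number but not the largest share. Of its 1041 tested pairs 174 (16.7%) were called higher, on 20 chromosomes, with 138 A and 36 B partners and 0 pairs called lower. Its A partners made up 19.7% of all 699 A–A pairs called higher. One of its partners was chr6:134000001-135000000 with the kinase gene SGK1, at 6, 3 and 4 contacts in growing, against 42 and 34 in RIS libraries. Contacts with chr11:104000001-105000000, which holds the inflammatory caspases CASP4 and CASP5, were 6, 2 and 9 against 27 and 36, and those with chr17:69000001-70000000 were 3, 4 and 8 against 45 and 30. These pairs were picked for their low p, so the counts are a description. Among A bins the next were those of HMGA2 (66 A partners), of RGS18, RGS13 and RGS21 (chr1:192000001-193000000, 48), of CDKN2A (33) and of CDC73 (chr1:193000001-194000000, 31). Next to NRG1 in number over all partners came CSMD3 with 151 of 473 tested pairs called higher and chr7:118000001-119000000 with 150 of 461. Then came chr12:82000001-83000000 with 139 of 741 and CDH19 (chr18:64000001-65000000) with 138 of 752. Each of these bins had a larger share of its tested pairs called higher than the bin of NRG1, and 96.4% to 100% of their partners were B.

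The largest increases by voom included NRG1 again. Among them were the pair of BRINP3 (chr1:190000001-191000000) with NRG1, at 2, 3 and 0 contacts in growing, against 25 and 39 in RIS libraries and that of PCDH18 (chr4:138000001-139000000) with NRG1, at 4, 1 and 1 against 19 and 29. Gene deserts were joined in chr1:96000001-97000000 with chr13:105000001-106000000 and chr1:194000001-195000000 with the bin of SGCZ, chr8:14000001-15000000. These pairs reached the minimum mean of 5 only through the RIS libraries, where they were high, so no fold or p is given for them. The named largest decreases, a description since the filter shaped them, had a bin on chromosome 19 or near a gap, except that of DISC1. The bin next to the gap of chromosome 19, chr19:24000001-25000000 with ZNF254 and ZNF726, met that of ANKRD55 (chr5:55000001-56000000) at 29, 45 and 59 contacts in growing, against 2 and 15 in RIS libraries (−3.00), and that of the integrins ITGA1 and ITGA2 (chr5:52000001-53000000) at 53, 85 and 102 against 14 and 16 (−2.67). In observed/expected the groups overlapped in the ANKRD55 pair, at 3.01, 6.41 and 4.86 in growing, against 0.247 and 3.27 in RIS libraries. They did not overlap in the integrin pair, at 5.48, 7.76 and 8.46 against 2.09 and 2.15. NCKAP5 (chr2:133000001-134000000) with chr20:31000001-32000000 was at 20, 32 and 34 against 5 and 5, and DISC1 (chr1:231000001-232000000) with chr4:184000001-185000000 at 17, 18 and 15 against 7 and 1. The pair of chr3:88000001-89000000 with the zinc finger bin chr19:21000001-22000000 was at 22, 20 and 17 against 7 and 2. Its groups overlapped in observed/expected, at 5.62, 4.13 and 3.81 in growing, against 4.11 and 0.917 in RIS libraries. These 3 pairs were at or near the minimum mean in RIS cells and were tested because they were high in growing cells, so no fold is given for them. The 5 bins with the most pairs called lower, 48 to 80 each, all lay within 2.53 Mb of a gap, on chromosomes 1, 19, 16, 9 and 21, where repeats resemble those of other chromosomes.

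The pairs with the highest level in growing cells all lay at gaps. The bin chr1:142000001-143000000 with chr4:49000001-50000000 had 709, 1206 and 866 contacts in growing, against 477 and 767 in RIS libraries, an observed/expected of 3280 to 3790 in growing, against 2960 and 2820 in RIS libraries. Both bins had only 10 usable bins of 40 kb. The next 4 joined chr1:142000001-143000000, chr1:143000001-144000000, chr4:49000001-50000000, chr21:9000001-10000000 and chr21:10000001-11000000 to each other. Near-identical repeats at these places can place reads of one chromosome on another, so the levels are uncertain. Without the 0.1% of pairs with the highest mean, the A–A, A–B and B–B differences were −0.18, −0.06 and 0.22.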

How the data were processed

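The Hi-C libraries, 3 from growing and 2 from RIS cells, were grouped by their labels. The authors deposited ICE-balanced signal between 40 kb bins (hg19), each library scaled to a total of 200000000, made with HiC-Pro after quality control with FastQC and the removal of artefacts and duplicates. Contact numbers were recovered as 1 factor per bin, and 100% of values came out whole within 0.05. Deposited capture Hi-C files (4 libraries) were not used here, since they cover baited regions only.

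Bins of 40 kb with values in all 5 libraries (69621) were summed to 1 Mb, keeping 1 Mb bins with at least 10 of them. Observed/expected divided each sum by that of an equal spread over the pairs studied. PC1 came from contacts within chromosomes at 200 kb, and was the best of 3 components against gene density on 23 of 23 chromosomes. Protein-coding genes, GC content and gaps came from the GRCh37 reference. A two-sided exact permutation test over libraries was used for single values. Chromosome pairs, bins and bin pairs were tested with limma 3.58.1 (R 4.3.3) on log2 values with Benjamini-Hochberg adjustment at 0.05. Bin pairs were scaled to 11008143 contacts, with a pseudocount of 0.5 and a minimum mean of 5. Each library was then fitted by loess against the mean of the libraries (span 0.3, 4 iterations), and fold changes are on the log2(value + 0.5) scale. The alternative was limma voom on recovered contacts, with a cyclic loess (span 0.3) for bin pairs. Python 3.11.15, numpy 2.4.6, scipy 1.17.1 and pandas 2.3.3 were used, and the tests were tried on simulated data. There limma found all changed chromosome pairs and bins at 2.0 fold, but 0 of 200 changed bin pairs, of which voom found 1.

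Named were the 5 chromosome pairs highest and lowest in growing cells, the 10 called pairs of largest change without overlap, and up to 4 genes per list by change in preference. The 5 bins and 5 bin pairs of largest change in each direction were also taken from those called without overlap. The named bin pairs called by voom did not overlap in recovered contacts, but some of them did in observed/expected. A few items that the rule names are not reported here. Members, lists and rules were chosen with earlier results of these data known. Alternatives were other scalings, filters, signs of A and B, unbalanced contacts, blocks by replicate number or duplicate class, and leaving out each library. P-values measure only the spread between these libraries, which may be technical.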

Additional observations from a re-analysis of the deposited data

How the results depend on the processing

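Of 193 checks of the comparisons under alternative settings, 182 were counted as unchanged. For a single value this means that it kept its direction, whatever its p, and for a count of calls that it stayed of like size. With each bin scaled to its total the A–A difference was 0.0936, A–B −0.0513 (exact p = 0.3), B–B −0.0333 (exact p = 0.3), among gene-rich chromosomes 0.239 and the slope on length −0.0163. On that scale 132 of the 221 chromosome pairs studied passed, against 185 of these 221 in the main fit. With library totals, an alternative chosen after seeing the data, A–A was 0.172, A–B 0.284, among gene-rich chromosomes 0.0879 (exact p = 0.5) and gene-rich with other 0.113 (exact p = 0.2). With the outer 20% of PC1, A–B was 0.0659 (exact p = 0.7). With limma voom on recovered contacts 13583 pairs of 1 Mb bins passed in place of 0. The cause was not tested. Of 710 checks of 52 named pairs and bins, 682 were counted as unchanged in direction and side of the threshold. A turn of direction where neither value passed was counted as unchanged. With each bin scaled to its total chr1-chr2 was −0.0461, chr1-chr5 −0.0454, chr2-chr3 −0.0231, chr2-chr4 −0.00151, chr2-chr5 −0.0257, chr19-chr22 0.640 and chr20-chr22 0.231, and with library totals chr19-chr22 was 0.207 and chr20-chr21 0.00255. The pair chr1-chr2 did not pass without RIS replicate 2 or without 2 Mb at gaps and ends (adjusted p = 0.0605).

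Leaving out each library gave ranges of 0.318 to 0.373 for the share on the log2 scale, −0.241 to −0.108 for A–A, −0.1 to −0.0247 for A–B, 0.195 to 0.231 for B–B, 0.0391 to 0.287 for the separation of compartments, −0.334 to −0.184 among gene-rich chromosomes, −0.259 to −0.208 with others, 0.0637 to 0.0796 among others, 0.118 to 0.168 for the slope, 194 to 219 chromosome pairs, 1652 to 1883 bins over all partners, 813 to 1197 bins in preference and 0 pairs of 1 Mb bins. Growing and RIS share only replicate numbers 1 and 2, and nothing in the labels ties them to a shared batch, so the numbers were not taken as pairs. Deviations from the group means of same-numbered libraries correlated at 0.394 and −0.153 over chromosome pairs, 0.517 and 0.319 over bins with all partners, and 0.462 and −0.489 over bins in preference. With a replicate block over them, 195 chromosome pairs, 1972 bins over all partners, 1015 bins in preference and 0 pairs of 1 Mb bins passed, with A–A at −0.180, A–B at −0.0505, B–B at 0.206, the separation at 0.126, the 3 chromosome classes at −0.270, −0.238 and 0.0733, the share at 0.318 and the slope at 0.147. Duplicate class as a block gave 217 chromosome pairs, 1899 bins and 1641 bins in preference, 339 of them higher. Deviations of growing replicate 3 and RIS replicate 2, both with many duplicates, correlated at 0.503 over chromosome pairs. They correlated at 0.294 over bins with all partners and 0.631 over bins in preference. The deviations of the 2 RIS libraries are exact opposites, so a correlation with 1 of them fixes that with the other. Within libraries with few and with many duplicates A–A was −0.114 and −0.229, B–B 0.188 and 0.244, and gene-rich with gene-rich −0.195 and −0.311. At about 3 contacts per pair of 1 Mb bins, differences of single pairs were mostly not detectable.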

Other observations

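Contacts outside the pairs studied were computed on the same scale. Pairs among chromosomes 13, 14, 15, 21 and 22, which carry the nucleolus organisers on their short arms, were at 2.004, 2.003 and 2.005 in growing and 1.866 and 1.770 in RIS libraries, a log2 difference of −0.14 without overlap (exact permutation p = 0.1). Contacts of the X chromosome with autosomes were at 0.822, 0.829 and 0.842 in growing and 0.842 and 0.889 in RIS libraries, a difference of 0.06 (0.10 without RIS replicate 1 and 0.02 without RIS replicate 2) in which growing replicate 3 and RIS replicate 1 nearly touched.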
